A study of Homo sapiens with 4 samples.

Results

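Protein-coding genes lying on 3 parts of the autosomes were compared between OGT-depleted and WT MEG-01 cells: chromosome 10 over its whole length, chromosome 8 beyond 60 Mb, and chromosome 6 beyond 108 Mb. The members number 47 of the 426 genes in the deposited table, with 17 on chromosome 10, 14 on chromosome 8 and 16 on chromosome 6. They were chosen by the measured direction of change: the table lists only genes that the authors called as changed, and these parts were picked because their listed genes mostly went one way. Every fold change and call of a member is therefore a description and supports nothing beyond itself. The rule also left out MGEA5 on chromosome 10, NDRG1, CA2, FZD6 and RPL8 on chromosome 8, and RPS12 on chromosome 6. Of these, MGEA5 (68.8% of WT) and FZD6 (49.1% of WT) were lower. FZD6 lies on chromosome 8, so the single direction of the chromosome 8 members is fixed by the choice.

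MEG-01 is a human megakaryoblastic cell line that gives off platelet-like particles. The 4 libraries of total RNA are 2 WT and 2 from cells whose OGT had been targeted with Cas9 and a guide RNA delivered together by 1 lentiviral vector. OGT is the enzyme that puts O-linked N-acetylglucosamine on nuclear and cytosolic proteins. The labels name no control guide or empty vector for the WT cells, so vector and OGT targeting cannot be told apart. They do not say whether the edited cells were a pool or 1 clone, nor that replicates were separate cultures. Errors therefore cover these libraries only, and they use a dispersion shared in part across the listed genes. Counted reads were between 17643474 and 19883586 per library, and the listed genes held 3.97% to 4.26% of them. OGT itself was at 16012 and 19190 normalized read counts in WT and 9124 and 12185 after depletion (a normalized count is the read count over the size factor of its library). Of 14 megakaryocyte and platelet markers 2 were in the table, TUBB1 called higher and F2R called lower. Of markers of other blood cells, the table held 4 of 6 for mast cells and basophils (CPA3, FCER1A, TPSAB1 and TPSB2, with 3 called higher and 1 lower), 1 of 6 erythroid (HBE1, higher), 1 of 4 lymphoid (GZMA, higher) and 1 of 5 monocyte and granulocyte (ITGAM, not called). Their part in the changes below was not tested. The levels of the markers outside the table are not analysed here, so the labelled cell type could not be checked against them. In bulk RNA, fewer cells that express a gene and less of its RNA per cell cannot be told apart.

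Genes that are neighbours on a chromosome need not share a function. They do share the DNA molecule they lie on: its number of copies in the cell and, over shorter distances, its replication timing and chromatin domains. The RNA level of each gene further depends on its own promoter and enhancers and on how fast its transcript decays. Leukaemia cell lines often carry gained, lost or rearranged chromosomes. Copy number and chromatin were not measured in this study's RNA libraries.

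On chromosome 10, the counts of 15 of the 17 members lay lower after depletion, without overlap of the groups. Those 15 lay between 61.3% and 73.4% of WT, with a median of 69.0%, and they came from both ends and the middle of the chromosome, with starts from 3.18 Mb (PITRM1) to 114.2 Mb (ZDHHC6) in hg19. SLC16A9 and ABLIM1 went the other way. In edgeR's quasi-likelihood test 8 were called lower and 2 higher. Over all 426 listed genes 31.9% were called lower, 50.2% higher and 82.2% in either direction, and the 2 groups of libraries did not overlap for 100% of them. The list as a whole is 3.24% of the genes that the authors tested.

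Among the lower members of chromosome 10, those for RNA and chromosome handling included the most abundant. RBM17 (6130950 to 6159420), which encodes the splicing factor SPF45, had 6785 and 5867 normalized counts in WT and 4214 and 3791 after depletion. That is 63.3% of WT, or -0.66 ± 0.13 as a log2 fold change (SE; n = 2 in each group here and below), and its mean WT level of 90.1 FPKM was the highest of the 17. KIF20B (91461367 to 91534700), a mitotic kinesin needed late in cell division, had 1276 and 1342 in WT and 767 and 844 after depletion, or 61.6% of WT. Replicates of each group lay close together and the gap between groups was wide, with a log2 fold change of -0.70 ± 0.12. ZWINT (58116989 to 58121036), a kinetochore protein that anchors the ZW10 complex, stood nearest to the median of all 17 members. It had 2025 and 2054 in WT against 1449 and 1377 (log2 fold change -0.53 ± 0.11). CCAR1, a transcriptional coactivator, was at 72.1% of WT, BTAF1, the ATPase that strips TBP from DNA, at 67.6%, and MLLT10, a cofactor of the histone methyltransferase DOT1L and a partner in leukaemia fusions, at 70.7%. MMS19, which delivers iron-sulfur clusters to DNA repair enzymes, was at 72.2%. Of these 7, RBM17, KIF20B, ZWINT and MLLT10 were called and CCAR1, BTAF1 and MMS19 were not. BTAF1 had the widest spread, from 2252 to 2708 in WT and from 1428 to 1924 after depletion, so that its nearest libraries differed by 1.17-fold.

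The other 8 lower members of chromosome 10 have unlike roles. SEC31B (102246399 to 102289628), a coat protein of vesicles leaving the endoplasmic reticulum, had 849 and 815 normalized counts in WT and 489 and 550 after depletion (log2 fold change -0.68 ± 0.13). PROSER2 (11865338 to 11914276), a proline- and serine-rich protein, had 361 and 373 in WT and 236 and 214 after depletion. At 61.3% of WT (log2 fold change -0.71 ± 0.15) it was the lowest ratio among the members. ZDHHC6, a palmitoyltransferase of the endoplasmic reticulum, was at 66.2% of WT and the membrane protein FAM171A1 at 65.3%, both called. PRKCQ, the theta isoform of protein kinase C, was at 72.2%, the netrin receptor UNC5B at 71.3%, C10orf54, the immune checkpoint protein VISTA, at 69.0%, and the mitochondrial peptidase PITRM1 at 73.4%. None of these last 4 was called, with adjusted p-values from 0.0540 to 0.0735 in edgeR.

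The 2 members of chromosome 10 that were higher are a transporter and a cytoskeletal gene. SLC16A9 (61410523 to 61495760), of the monocarboxylate transporter family, had 522 and 537 normalized counts in WT and 809 and 882 after depletion, a log2 fold change of 0.68 ± 0.13. The member before it on the chromosome is ZWINT, which was lower. ABLIM1 (116190872 to 116444762), an actin-binding LIM protein, had 103 and 143 in WT and 260 and 304 after depletion, a log2 fold change of 1.19 ± 0.19. Its WT level of 0.871 FPKM was the lowest of the 17. It lies next to ZDHHC6 in the list and was the last member along the chromosome. The 3 listed rows of chromosome 10 that the rule omitted were lower: MGEA5, which encodes the enzyme that removes O-GlcNAc, at 68.8% of WT, the antisense RNA PRKCQ-AS1 at 66.1% and the transcript RP11-18I14.10 at 63.3%. PRKCQ-AS1 begins just past PRKCQ on the other strand, and their deposited spans do not overlap. Without WT replicate 1 or without WT replicate 2, 0 of the 17 were called, in fits that called 86 and 37 of all 426 genes. With TMM or DESeq2 scaling factors taken from the listed genes 15 were called lower and 1 higher, where 313 and 255 of the 426 were called. All 17 kept their direction in each of these fits.

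**Figure D1:**
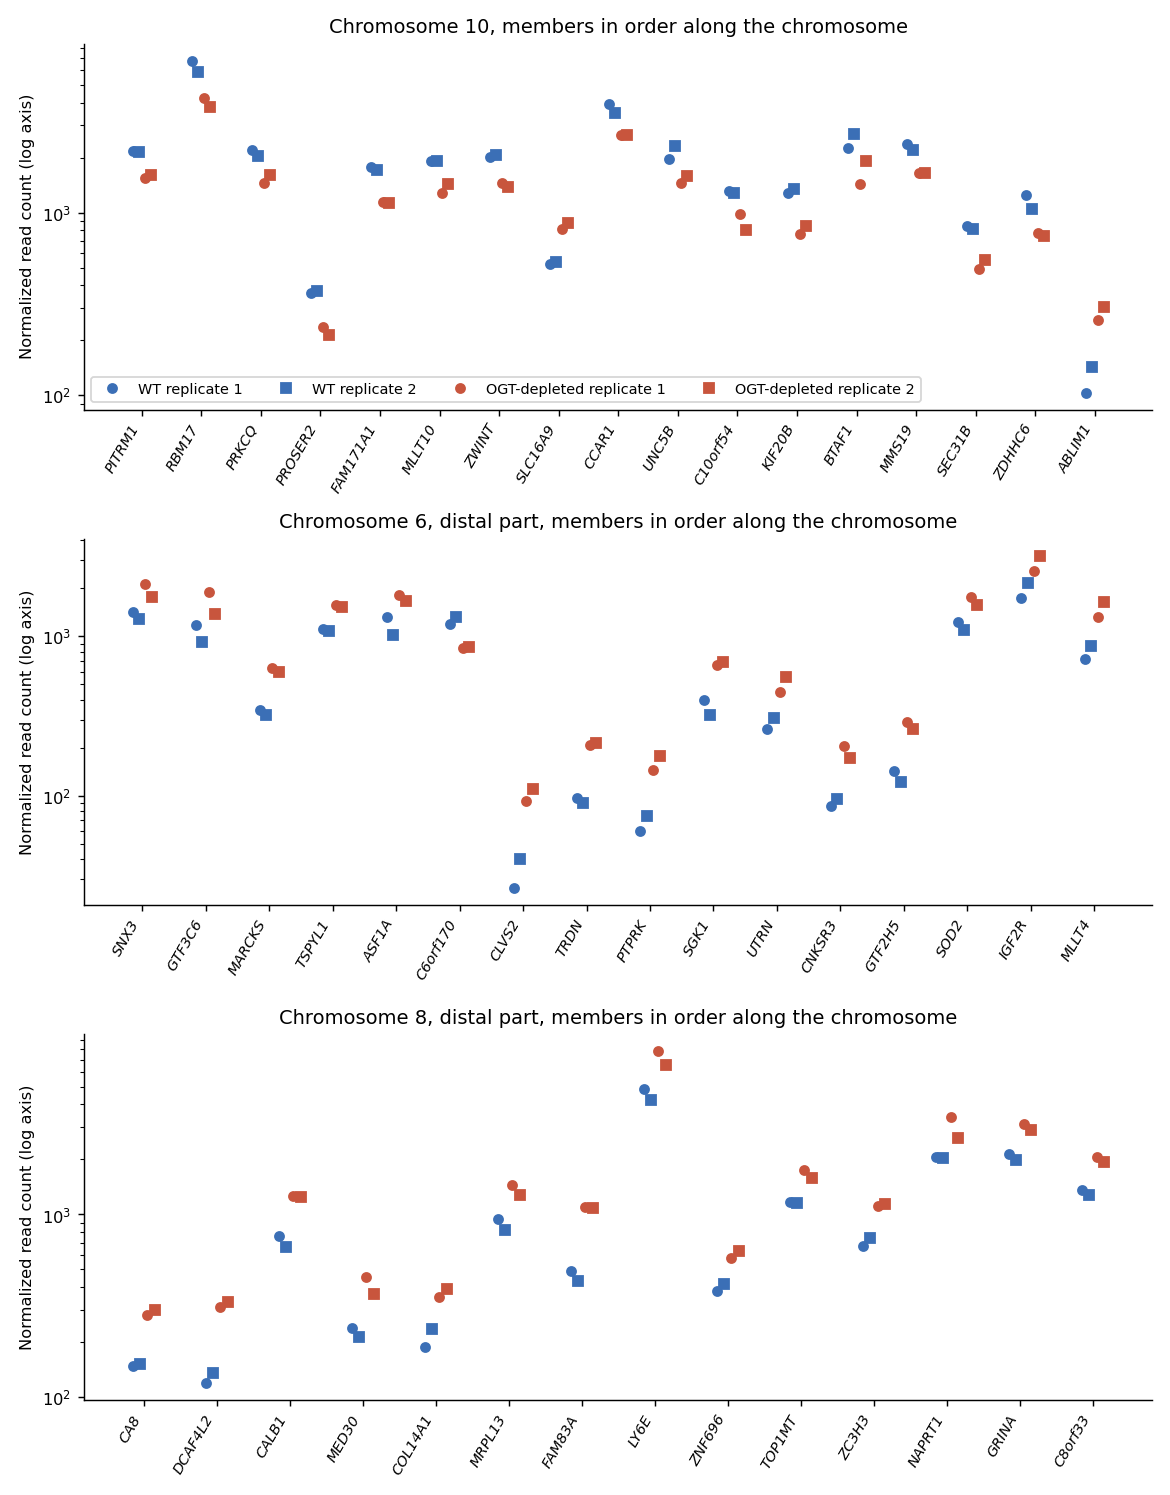
Normalized read counts (log axis) of the members in each library, 1 panel per chromosome part with genes in order along it; circles are replicate 1 and squares replicate 2, WT in blue and OGT-depleted in red. The red symbols lie below the blue for 15 of 17 genes in the first panel, and above them for 15 of 16 and 14 of 14 in the other panels.

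The promoters of the last 2 members of chromosome 10 are shown because these neighbours went in opposite directions. They are RefSeq sequences of GRCh38.p14, 300 bases around the gene start of that annotation, on the minus strand, at chr10:112446865-112447164 for ZDHHC6 and chr10:114684954-114685253 for ABLIM1. Capitals mark each CG dinucleotide, of which the first has 20 and the second 5.
ZDHHC6: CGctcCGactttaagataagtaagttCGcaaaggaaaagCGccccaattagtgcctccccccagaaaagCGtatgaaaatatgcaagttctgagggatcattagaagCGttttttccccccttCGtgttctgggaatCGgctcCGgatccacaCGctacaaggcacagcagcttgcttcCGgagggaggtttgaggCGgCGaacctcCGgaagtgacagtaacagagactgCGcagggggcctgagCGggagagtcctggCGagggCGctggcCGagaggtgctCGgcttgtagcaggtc
ABLIM1: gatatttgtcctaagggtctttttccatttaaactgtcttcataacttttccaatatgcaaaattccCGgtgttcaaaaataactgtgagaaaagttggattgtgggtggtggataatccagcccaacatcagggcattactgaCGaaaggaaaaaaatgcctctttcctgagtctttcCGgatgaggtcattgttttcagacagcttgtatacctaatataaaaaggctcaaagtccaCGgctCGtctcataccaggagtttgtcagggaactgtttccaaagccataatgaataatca
The start used for ABLIM1 is a single one of this annotation, and reads in the table are not split by start.

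On chromosome 6 beyond 108 Mb, the counts of 15 of the 16 members lay higher after depletion, again without overlap. The 15 lay between 1.41-fold and 3.05-fold of WT, with a median of 1.84-fold, and C6orf170 was at 67.8%. In edgeR 11 were called higher and 1 lower. Over all 426 listed genes 50.2% were called higher and 31.9% lower, and 100% had no overlap of the groups. Their starts run from 108.5 Mb (SNX3) to 168.2 Mb (MLLT4), with a median of 2.75 Mb from one to the next and the widest gap, of 10.1 Mb, between UTRN and CNKSR3.

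The largest ratios on chromosome 6 belonged to genes with few reads in WT. CLVS2 (123317116 to 123385612), a lipid-binding clavesin, had 26.3 and 40.2 normalized counts in WT and 92.8 and 110 after depletion, a log2 fold change of 1.60 ± 0.24. PTPRK (128289924 to 128841870), a receptor tyrosine phosphatase of cell contacts, had 60.02 and 74.15 in WT and 144.9 and 178.3 after depletion (log2 fold change 1.27 ± 0.20). Its WT level of 0.582 FPKM was the lowest of the 16. TRDN (123537483 to 123958238), which encodes triadin of the muscle calcium release complex, had 96.9 and 90.6 in WT and 209 and 213 after depletion (log2 fold change 1.17 ± 0.17). CNKSR3 (154726433 to 154831793), a scaffold of MAPK and sodium channel signalling, had 86.3 and 95.8 in WT and 204 and 174 after depletion (log2 fold change 1.05 ± 0.18). Those 4 had under 2 FPKM in WT, as did UTRN, so their ratios rest on 25 to 299 raw reads per WT library. UTRN (144606837 to 145174170), the dystrophin-related linker utrophin, stood with MARCKS on either side of the median of the 16, with 261 and 308 in WT and 444 and 559 after depletion (log2 fold change 0.82 ± 0.17).

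Transcription and chromatin genes of chromosome 6 were higher at very different WT levels. GTF2H5 (158589384 to 158615020), the smallest subunit of TFIIH, had 143 and 123 normalized counts in WT and 288 and 264 after depletion (log2 fold change 1.05 ± 0.17). GTF3C6 (111279763 to 111289093), a TFIIIC subunit, had 1179 and 917 in WT and 1886 and 1379 after depletion. It had the highest WT level of the 16 (58.7 FPKM), and replicate 1 exceeded replicate 2 in both groups, which left a log2 fold change of 0.64 ± 0.17 that was not called (adjusted p = 0.0817, edgeR). ASF1A, a histone H3-H4 chaperone, was 1.48-fold of WT and not called, and TSPYL1, of the nucleosome assembly protein family, was called at 1.41-fold. In the annotation of GENCODE release 29 an exon of ASF1A overlaps one of MCM9 on the other strand, and an exon of TSPYL1 one of DSE, so reads of those pairs could be mixed.

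Signalling, membrane and mitochondrial members made up the others on chromosome 6. SGK1 (134490384 to 134639250), a kinase induced by glucocorticoids and serum, had 398 and 320 normalized counts in WT and 657 and 688 after depletion (log2 fold change 0.91 ± 0.15). MARCKS, a protein kinase C substrate that binds actin and the membrane, had 344 and 322 in WT and 631 and 596 after depletion, or 1.84-fold of WT. It was called, as was the junction protein afadin (MLLT4) at 1.87-fold. The mitochondrial superoxide dismutase SOD2 was 1.43-fold and called. The sorting nexin SNX3 was 1.44-fold and IGF2R, the receptor that carries lysosomal enzymes, 1.48-fold, and neither was called. C6orf170 (121400640 to 121655891), also known as TBC1D32 and needed for ciliary signalling, was the exception, with 1187 and 1323 in WT and 847 and 854 after depletion (log2 fold change -0.56 ± 0.12). It sits between ASF1A and CLVS2, both higher. Without WT replicate 1 the call count of the 16 was 1 (SGK1) and without WT replicate 2 it was 1 (MLLT4), against 86 and 37 of all 426 genes. With DESeq2 scaling factors from the listed genes 2 were called higher and 1 lower (255 of the 426 in all), and all 16 kept their direction in these fits.

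The promoters of C6orf170 and of the 2 members after it are shown because the first was lower and the members after it were higher. They are RefSeq sequences of GRCh38.p14, at chr6:121334431-121334730 on the minus strand for C6orf170, chr6:122995985-122996284 on the plus strand for CLVS2 and chr6:123636901-123637200 on the minus strand for TRDN, with CG dinucleotides in capitals.
C6orf170: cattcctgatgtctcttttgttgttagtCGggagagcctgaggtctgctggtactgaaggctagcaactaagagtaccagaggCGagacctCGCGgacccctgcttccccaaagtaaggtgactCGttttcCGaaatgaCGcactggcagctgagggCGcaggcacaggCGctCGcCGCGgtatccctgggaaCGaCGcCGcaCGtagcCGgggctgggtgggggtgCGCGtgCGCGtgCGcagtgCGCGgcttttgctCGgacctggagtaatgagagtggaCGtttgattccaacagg
CLVS2: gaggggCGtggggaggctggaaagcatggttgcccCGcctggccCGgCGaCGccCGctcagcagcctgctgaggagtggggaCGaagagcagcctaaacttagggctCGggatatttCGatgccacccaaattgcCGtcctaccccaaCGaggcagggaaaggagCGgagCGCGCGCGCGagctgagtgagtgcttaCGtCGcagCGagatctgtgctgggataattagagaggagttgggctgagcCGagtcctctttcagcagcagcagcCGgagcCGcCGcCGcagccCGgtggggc
TRDN: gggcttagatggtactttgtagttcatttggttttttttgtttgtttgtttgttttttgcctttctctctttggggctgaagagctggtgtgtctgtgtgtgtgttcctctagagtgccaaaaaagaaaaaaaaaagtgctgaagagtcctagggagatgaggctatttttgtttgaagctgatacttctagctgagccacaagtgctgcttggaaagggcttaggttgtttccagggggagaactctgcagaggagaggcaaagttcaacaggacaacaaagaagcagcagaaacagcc
C6orf170, which was lower, and CLVS2, which was higher, have 26 CG dinucleotides each, and TRDN has 0. Promoters were matched for 32 of the 47 members by symbol or synonym. Those 32 are 16 of the 17 members on chromosome 10 and the 16 on chromosome 6. The 15 lower and the 17 higher genes among them both had a median of 30 CG dinucleotides, against 22 over 15842 protein-coding promoters of the same length. Those 15842 were not matched for expression, while the members had to be expressed to be listed. The letters GGGCGG, the core of the box bound by Sp1, were on one strand or the other in 21 of the 32 (65.6%, against 58.5% of the promoters of that size). The letters TATAAA were found in 3 (9.38% against 9.63%). Those of a site for GATA factors, spelled AGATAA, were found in ZDHHC6 only (3.12% against 7.57%). These are matches of letters and not binding sites.

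**Figure D2:**
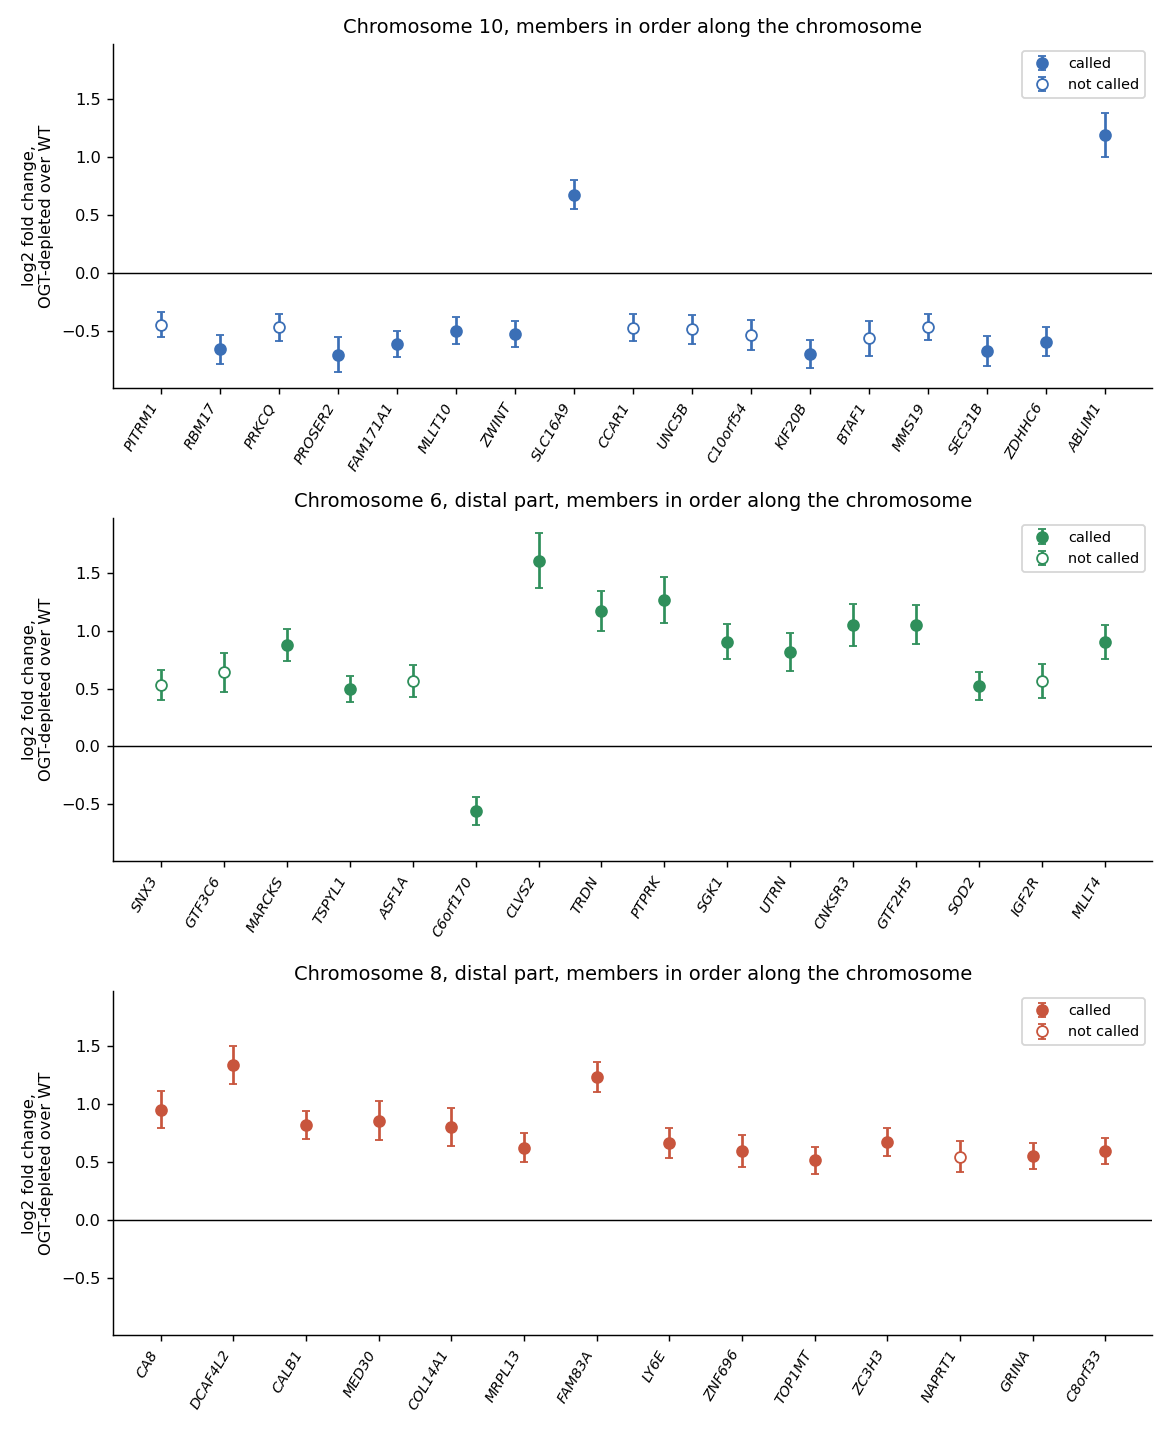
log2 fold change of each member (OGT-depleted over WT, edgeR) in order along its chromosome part; bars are SE with n = 2 per group and filled points were called. Chromosome 10 points cluster between -0.71 and -0.45 apart from SLC16A9 and ABLIM1, and C6orf170 is the only chromosome 6 point below 0.

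On chromosome 8 beyond 60 Mb, each of the 14 members was higher after depletion, from 1.43-fold to 2.53-fold with a median of 1.59-fold. In edgeR 13 were called higher, where 50.2% of all 426 listed genes were called higher and 82.2% in either direction. The members before the last gap wider than 10 Mb and those after it differed in size of change. Those 7 before it, from CA8 to FAM83A, had a median of 1.81-fold, and the 7 after it, from LY6E to C8orf33, a median of 1.51-fold with a range of 1.43-fold to 1.59-fold. The latter 7 lie within 2.18 Mb (144.1 to 146.3 Mb), after a gap of 19.9 Mb. This division was made after the values were seen, and the 7 of the distal block were also the more abundant, with a median WT count of 1325 against 227.

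Of the 7 before the gap, DCAF4L2 and FAM83A had the largest changes. DCAF4L2 (88882973 to 88886296), a WD-repeat protein of the DCAF group, had 119 and 135 normalized counts in WT and 312 and 331 after depletion (log2 fold change 1.34 ± 0.17). FAM83A (124191200 to 124222314), which binds casein kinase 1, had 491 and 434 in WT and 1092 and 1084 after depletion (log2 fold change 1.24 ± 0.13). These 2 were the only members of the 47 that were called with each library left out in turn. CA8 (61099906 to 61193971), a carbonic anhydrase-related protein without enzyme activity, had 148 and 152 in WT and 283 and 300.0 after depletion (log2 fold change 0.95 ± 0.16). CALB1 (91070836 to 91107703), the calcium buffer calbindin, had 759 and 666 in WT and 1267 and 1250 after depletion (log2 fold change 0.82 ± 0.12). MED30 (118532952 to 118552501), a Mediator subunit, had 240.1 and 214 in WT and 456 and 368 after depletion (log2 fold change 0.86 ± 0.17). COL14A1 (121072019 to 121384275), a fibril-associated collagen, had 190 and 236 in WT and 353 and 390.1 after depletion (log2 fold change 0.81 ± 0.17), and its 1.77 FPKM in WT was the lowest of the 14. MRPL13, of the mitochondrial ribosome, was 1.54-fold of WT, and an exon of it overlaps one of MTBP on the other strand.

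The distal block of chromosome 8 held genes of unlike roles, with ratios of 1.43-fold to 1.59-fold. The smallest ratio among the 132 other higher genes in the WT range of the 14 was 1.35-fold. LY6E (144099399 to 144105249), a GPI-anchored surface protein, had 4868 and 4207 normalized counts in WT and 7834 and 6552 after depletion (log2 fold change 0.67 ± 0.13), and with 170.8 FPKM in WT it was the most abundant of the 47. ZC3H3 (144519825 to 144623623), a zinc finger protein of polyadenylated RNA export, stood with LY6E on either side of the median of the 14, with 675 and 742 in WT and 1110 and 1146 after depletion (log2 fold change 0.67 ± 0.12). The zinc finger gene ZNF696 was 1.51-fold of WT, the mitochondrial topoisomerase TOP1MT 1.43-fold, GRINA, of the TMBIM membrane family, 1.47-fold and C8orf33 1.51-fold, all called. NAPRT1, which starts NAD synthesis from nicotinic acid, was 1.46-fold and not called, with 3409 and 2617 counts after depletion against 2075 and 2048 in WT. RPL8, a ribosomal protein gene between GRINA and C8orf33 that the rule omits, was at 150.0% of WT. Without WT replicate 1 the calls numbered 3 of 14 and without WT replicate 2 they numbered 2, against 86 and 37 of all 426 genes. With TMM or DESeq2 scaling factors from the listed genes 4 and 2 were called (313 and 255 of the 426), and all 14 kept their direction.

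The start thresholds fall in stretches with no listed gene. On chromosome 8 the nearest rows outside were FZD3 (28.4 Mb, 69.8% of WT) and TEX15 (30.7 Mb, 64.8%), and the nearest inside were CA8 (61.1 Mb, 193.8%) and CA2 (86.4 Mb, 156%, not a member). On chromosome 6 they were CD109 (74.4 Mb, 67.2%) and MRAP2 (84.7 Mb, 218%) outside, and SNX3 (108.5 Mb, 144%) and GTF3C6 (111.3 Mb, 156%) inside. MRAP2, outside, was higher like the members. The rows outside the threshold numbered 7 on chromosome 8, with 2 higher and 5 lower, and 14 on chromosome 6, with 7 higher and 7 lower.

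Sizes of change were set beside those of the other 347 protein-coding rows, because a table of called genes holds no small changes. Within the WT range of the 15 lower chromosome 10 members (367 to 6326 normalized counts) there were 121 other lower genes, with a median log2 fold change of -0.63, quartiles of -0.74 and -0.54 and extremes of -1.30 and -0.44. The 15 had a median of -0.54 and quartiles of -0.64 and -0.48. Their median was therefore a smaller change than that of the other lower genes at those levels. The 14 of chromosome 8 had a median of 0.67, against 0.80 in 132 other higher genes of their WT range. The 15 higher members of chromosome 6 had a median of 0.88, against 0.94 in 160 others. No test was run on these differences, since the members were chosen on the same contrast.

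**Figure D3:**
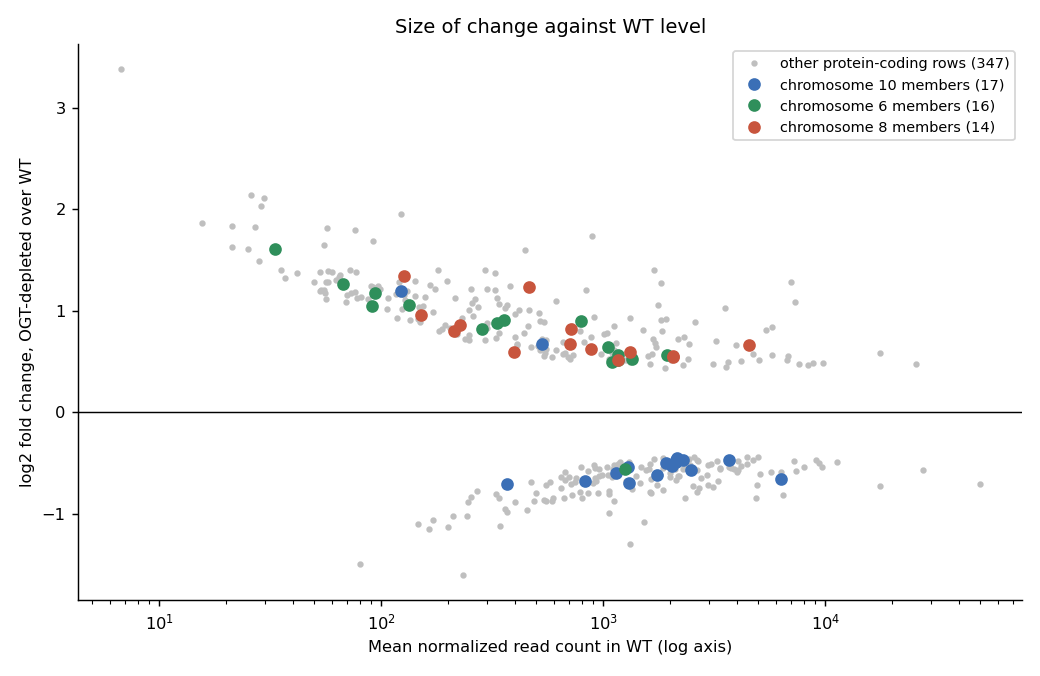
log2 fold change (OGT-depleted over WT) against the mean normalized count in WT (log axis), 1 point per gene; grey points are the other 347 protein-coding rows. The plotted changes nearest to 0 are -0.44 among lower and 0.44 among higher genes, and most members lie near the inner edge of the grey points, with FAM83A well above it.

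Size of change followed abundance in each part, as it did elsewhere in the table. Spearman's rho between WT normalized count and log2 fold change was -0.90 across the 15 higher members of chromosome 6, -0.73 across the 14 of chromosome 8 and 0.55 across the 15 lower of chromosome 10, so smaller counts went with larger changes. Across the 199 other higher and 148 other lower genes it was -0.77 and 0.61. On chromosome 8 the rho with start position was -0.78, slightly beyond that with abundance, and the distal members were the more abundant. On chromosomes 10 and 6 it was -0.22 and 0.15. These are descriptions across genes that share the same 4 libraries, and the WT count enters both measures. A gene with few reads also needed a larger change to be listed, so the listing itself ties size of change to abundance. By level per length, median WT values were 20.1 FPKM on chromosome 10, 12.0 on chromosome 8 and 4.85 on chromosome 6. The other protein-coding rows had 11.6, and there the level went with direction, with 18.9 in lower and 5.66 in higher genes. Median gene lengths were 4174, 2736 and 4288 bases in that order, against 3685. Other lower genes had a median of 4268 bases and other higher genes 3135.

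The libraries of the 2 groups did not overlap for any of the 47, as for 100% of the listed genes. The nearest pair of a WT and an OGT-depleted library was between 1.17-fold and 2.31-fold apart. For BTAF1, GTF3C6, IGF2R, NAPRT1 and ASF1A that distance was smaller than the one between the replicates of at least 1 group. Over each pairing of 1 WT with 1 OGT-depleted library, the median log2 ratio of chromosome 10 stayed between -0.58 and -0.50, that of chromosome 8 between 0.64 and 0.77 and that of chromosome 6 between 0.75 and 0.90. Within groups, replicate 2 over replicate 1 had medians of -0.02 and 0.05 for chromosome 10 (WT, then OGT-depleted), -0.06 and -0.06 for chromosome 8 and -0.07 and -0.02 for chromosome 6. Replicate differences had the same sign in both groups for 37 of 47 members and moved with gene length, with a Spearman's rho across members of 0.49 in WT and 0.72 after depletion. The other protein-coding rows showed the same, with equal signs in 233 of 347 and a rho of 0.43 and 0.59. GTF3C6 (952 bases) was lower in replicate 2 of both groups, and IGF2R (9091 bases) was higher in replicate 2 of both. Between length and the change between groups, rho was 0.54 across the 14 members of chromosome 8, -0.13 across the 15 lower of chromosome 10 and 0.09 across the 15 higher of chromosome 6, against -0.02 and 0.00 across the other higher and lower genes.

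**Figure D4:**
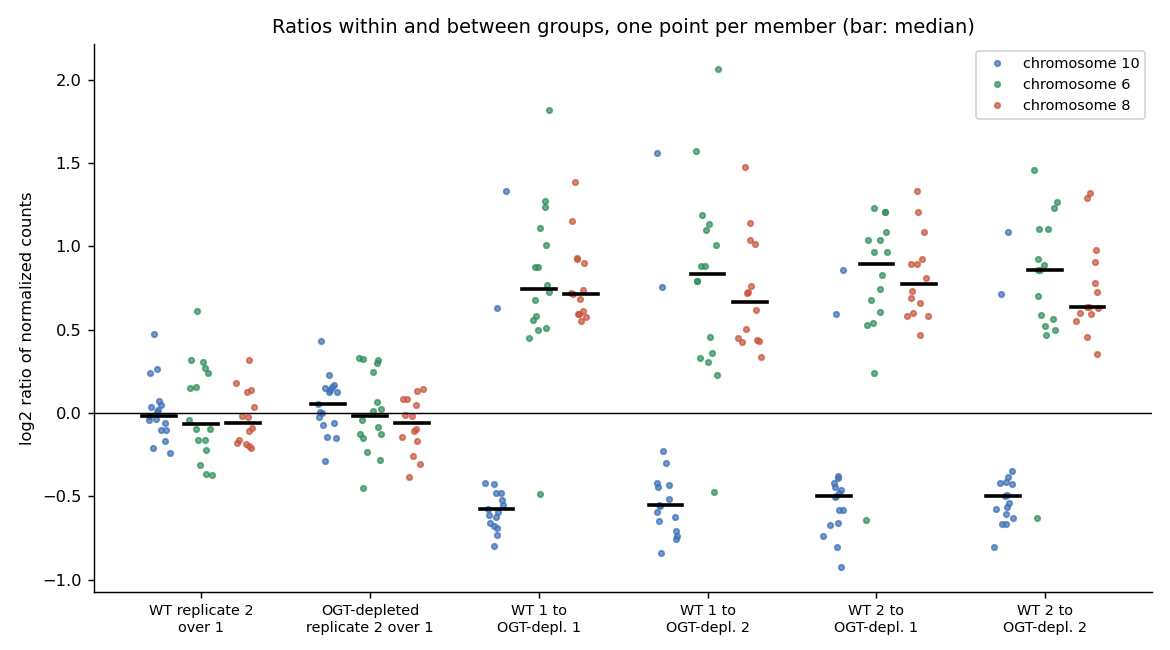
log2 ratios of normalized counts between pairs of libraries, 1 point per member and a black bar at the median of each chromosome part. Ratios of replicates centre near 0 for the 3 parts, while each WT to OGT-depleted pairing puts chromosome 10 below 0 and chromosomes 6 and 8 above it.

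A list of 41 blood-related genes of the 3 parts was written from textbook knowledge, with earlier results of these data known. Its share in the table is therefore no independent comparison. Of the 41, 3 were in the table, which holds 3.24% of all genes that the authors tested. They are MLLT10, called lower, and LY6E and SGK1, called higher. The other 38 are not in the table, and their levels are not analysed here. Exons of 15 of the 45 members found in GENCODE release 29 (GRCh38, matched by gene ID) overlap an exon of another gene, 13 of them on the other strand, and the counts of those genes carry that doubt.

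**Figure D5:**
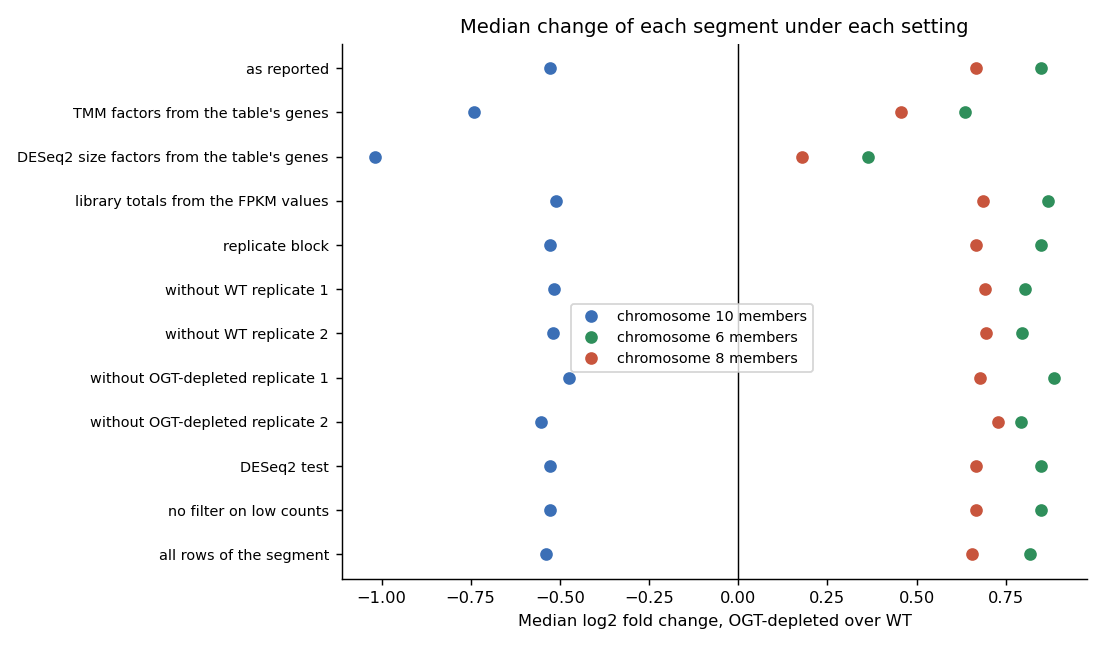
Median log2 fold change (OGT-depleted over WT) of the members of each chromosome part under each way of processing, 1 row per setting; points carry no error bars. The medians stayed below 0 for chromosome 10 and above 0 for chromosomes 6 and 8, and scaling factors taken from the listed genes moved the 3 of them downward together, to -1.02, 0.36 and 0.18 with DESeq2 size factors.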

How the data were processed

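RNA of 4 libraries was sequenced by the authors, and the table analysed here lists the genes they called, with a highest deposited adjusted p-value of 0.0497. The submitters' processing notes name hg19 as the build and, with no roles, DESeq2, TopHat, STAR 2.5 and CASAVA 1.8. No source used here gives the counter, annotation or strand setting. Raw read counts per library were deposited without normalization, and the deposited FPKM values use the deposited gene length and the counted reads of each library. The deposited means per group hold a normalized signal (counts over size factors, averaged), from which size factors of 0.950, 0.971 (WT) and 1.06, 1.04 (OGT-depleted) were recovered. The authors' deposited log2 fold changes entered no value given here, and their deposited p-values served to recover 13154 tested genes. Columns headed OGTi 1 and 2 were matched to the titles CR_OGT by number, since they average to the deposited CR_OGT mean. The labels do not explain the heading OGTi.

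edgeR 4.0.16 in R 4.3.3 (glmQLFit, glmQLFTest) was run on all 426 genes with library sizes proportional to those size factors, and all 426 passed filterByExpr. Benjamini-Hochberg adjustment covered the 13154 genes, with unlisted genes taken as not passing, and a call is an adjusted p under 0.05. For each SE the absolute log2 fold change was divided by the root of its F statistic. The fit takes its dispersion from genes chosen as changed. DESeq2 1.42.0, other scalings, a replicate block and leaving out each library were the alternatives. Members and lists were chosen with earlier results of these data known. Full values are given for the 6 largest changes per chromosome part, members against its majority, the member nearest its median, and those with the highest and lowest WT FPKM. For the 2 rows on each side of a start threshold the start and the percent of WT are given.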

Additional observations from a re-analysis of the deposited data

How the results depend on the processing

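The direction of the 47 members was the same in every alternative run, while calls and sizes moved with the scaling and the libraries used. TMM factors from the listed genes shift the median log2 fold change of the table by -0.21. They gave 16 calls on chromosome 10, 4 on chromosome 8 and 9 on chromosome 6, where 313 of the 426 were called. Median log2 fold changes were then -0.74, 0.46 and 0.64 on chromosomes 10, 8 and 6. Leaving out 1 library at a time gave 0 to 8 calls on chromosome 10, 2 to 13 on chromosome 8 and 1 to 13 on chromosome 6, in fits that called 37 to 345 of all 426 genes, with medians of -0.55 to -0.47, 0.68 to 0.73 and 0.79 to 0.88. DESeq2 size factors from the listed genes, with a shift of -0.49, gave 16, 2 and 3 calls and medians of -1.02, 0.18 and 0.36. Both scalings rest on genes that were listed because they changed. DESeq2's own test with the recovered size factors called 17 on chromosome 10, 47 members in all and 421 of the 426 genes. Library totals recovered from the FPKM values gave 13, 13 and 15 calls on chromosomes 10, 8 and 6, and 368 of all 426 genes. With the replicate number as a block (replicate block), 0, 0 and 0 members were called in edgeR, with adjusted p-values from 0.0629 to 0.328, and 0 of all 426 genes; that fit has 1 residual degree of freedom before pooling. Same-numbered libraries deviated together (Pearson's r = 0.50 across the 426 genes and 0.68 across the 47 members), but with 2 pairs and no label on pairing the numbers are not taken to pair them.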
